A study of Mus musculus with 4 samples.

Results

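The genes described here are the 6 ceramide synthases, Cers1 to Cers6, and 3 elongases of polyunsaturated fatty acids, Elovl2, Elovl4 and Elovl5. They are 9 of the 31600 features in the deposited table and were picked by gene symbol, with earlier results of the same contrast known. That contrast, and in it the difference of Cers3 from the other genes, is therefore given below as a description, with no p-value for any of these 9 genes. The cells are labelled as mouse spermatogonial stem cells, the cells of the testis from which spermatogenesis is maintained, and their total RNA was depleted of ribosomal RNA. The differentiation group (2 libraries) has Differentiation in the genotype field of its labels, and the control group (2 libraries) has WT there. Both groups carry the same cell type label. The labels do not say how or when differentiation was brought about, which strain or age the mice had, or whether replicate libraries are independent cultures or mice. The p-values below thus hold only the spread between these libraries, which may be technical. Levels are FPKM, which correct fragments for the length of a gene's exons and for depth, so that levels of different genes can be set beside each other. The FPKM correspond to 17774600 and 20360462 fragments in the differentiation libraries and to 19459420 and 20646650 in the control libraries.

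Ceramide synthases join a fatty acid to a sphingoid base in the endoplasmic reticulum, and the isoforms differ in the chain length of the fatty acid they take. Elongases add carbons to fatty acyl-CoA and so make the long and very long chains that some ceramide synthases use. Spermatocytes and spermatids of rodents are known for ceramides and sphingomyelins with very-long-chain polyunsaturated fatty acids, which depend on Cers3 and Elovl2.

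In short, the differentiation libraries held much more Cers3 and Elovl2 RNA, somewhat more Cers2 RNA, and less Cers6, Elovl5 and Elovl4 RNA, while Cers5 stood at nearly one level in both groups. Cers3 was the highest of the 9 genes in differentiation. In control it had the lowest mean, but its range overlapped with those of Cers1 and Cers4. By limma on log2(FPKM + 1) over all features, with Benjamini-Hochberg adjusted p under 0.05, 3 of the 9 genes were higher, 3 were lower and 3 did not pass. Of all 23138 features tested, 56.6% passed, 29.6% higher and 27% lower, and of the 14397 protein-coding ones 66.5% passed, 32.5% higher and 34% lower. The groups did not overlap for 7 of the 9 genes and for 79.9% of all features tested. Since the 9 genes were chosen on this contrast, nothing is read from their count. The median log2 difference was -0.01 over the 9 genes and 0.01 over all features tested. The authors' deposited values, from the same 4 libraries, called 3 of the 9 genes higher and 3 lower, and 6943 higher and 6417 lower of all 31600 features.

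**Figure D1:**
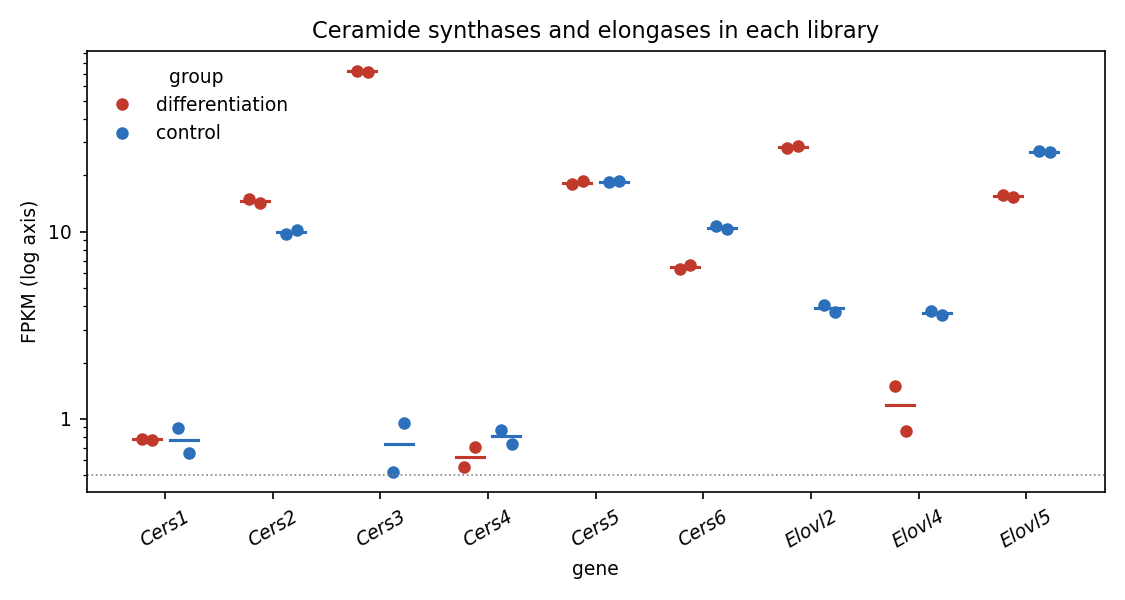
FPKM (log axis) of each of the 9 genes in the 2 differentiation libraries (red) and the 2 control libraries (blue). Points are libraries, short lines are group means, and the dotted line marks 0.5 FPKM, the mean a feature needed for testing. Cers3 stands at 72.4 and 71.2 FPKM in differentiation and at 0.521 and 0.952 FPKM in control.

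The starts of 3 genes are shown, because Cers3, with the largest increase of the 9 genes, has a promoter window with far fewer CpG dinucleotides than that of Elovl2, which also rose. Elovl5 was the highest of the 9 genes in control and fell. The windows are RefSeq's (GRCm38.p6), are 300 bases long, most of them upstream of a start, and are written 5′ to 3′ on the gene's strand, with CpG in capitals.
Cers3, chr7:66743254-66743553, plus strand: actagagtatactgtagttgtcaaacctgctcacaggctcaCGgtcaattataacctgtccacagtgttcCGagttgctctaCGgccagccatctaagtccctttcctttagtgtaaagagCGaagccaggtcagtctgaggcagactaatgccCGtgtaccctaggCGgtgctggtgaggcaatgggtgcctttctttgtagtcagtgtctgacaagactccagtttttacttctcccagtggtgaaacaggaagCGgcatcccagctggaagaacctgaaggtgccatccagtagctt
Elovl2, chr13:41220354-41220653, minus strand: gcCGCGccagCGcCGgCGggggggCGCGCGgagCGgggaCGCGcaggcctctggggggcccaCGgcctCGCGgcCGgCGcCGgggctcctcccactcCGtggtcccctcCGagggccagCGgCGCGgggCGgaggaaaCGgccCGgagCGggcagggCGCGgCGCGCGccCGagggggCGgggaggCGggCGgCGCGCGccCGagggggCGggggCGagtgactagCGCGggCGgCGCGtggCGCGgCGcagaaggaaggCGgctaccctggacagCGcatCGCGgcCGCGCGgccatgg
Elovl5, chr9:77917115-77917414, plus strand: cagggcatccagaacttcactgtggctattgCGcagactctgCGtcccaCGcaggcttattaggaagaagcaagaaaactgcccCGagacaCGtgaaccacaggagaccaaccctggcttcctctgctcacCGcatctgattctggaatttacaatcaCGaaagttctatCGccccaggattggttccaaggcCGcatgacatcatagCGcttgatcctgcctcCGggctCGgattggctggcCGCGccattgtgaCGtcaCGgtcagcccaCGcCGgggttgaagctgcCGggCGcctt
The Cers3 window holds 7 CpG, the median of all 32851 windows, and its GC content is 50.7%. All 9 genes matched the RefSeq table, with 2 windows each for Cers2 and Elovl2. The Cers2 window at the downstream start holds 6 CpG. The other windows of the 8 other genes hold 14 (Cers4) to 56 (Elovl2, at the upstream start), and Elovl5 has 20. The upper quartile of all windows is 20. Motifs were searched on both strands. The MYB core, searched in the forms CAACTG, then also CAACGG, as well as TAACTG, and finally TAACGG, was found in 28.3% of all windows. Of the 9 genes Cers1 alone had it. The cAMP response element TGACGTCA, found in 1.79% of all windows, begins at base 4 after the Elovl5 start and was in no window of the other 8 genes. The RFX half-site GTTGCC, found in 12.5% of all windows, was in none of them. A match is a run of letters and not a shown binding site.

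Cers3 makes ceramides with ultra-long acyl chains and is known from skin and testis. The gene (chr7:66743504-66823691, plus strand, GRCm38 with GENCODE M21, as for all genes below) had 72.4 and 71.2 FPKM in the differentiation libraries, against 0.521 and 0.952 FPKM in the control libraries. Every differentiation value was far above both control values. In bulk samples such as these, fewer cells of a type and less RNA per cell cannot be told apart. The ratio of group means was 97.5, and single pairs of libraries gave ratios from 74.8 to 139. The control values rest on 33 and 64 fragments (exact Poisson 95% intervals 22.7 to 46.3 and 49.3 to 81.7, counting error only), while the differentiation values rest on 4188 and 4722. Relative to their mean, the control values lay much farther apart than the differentiation values. On the log2(FPKM + 1) scale the difference was 5.40 (SE 0.13), and 21 of the 23138 features tested had a larger one. That scale understates changes of low genes: on whole fragments recovered from the FPKM, limma-voom gave 6.62 (SE 0.21).

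Cers5 and Cers6, which both favour palmitoyl-CoA, were the ceramide synthases with the highest levels in control. Cers5 (chr15:99734881-99772885, minus strand) had 18.0 and 18.6 FPKM in differentiation, against 18.3 and 18.6 FPKM in control. The ranges overlapped, with a log2 difference of -0.01 (SE 0.035). Cers6 (chr2:68861441-69114282, plus strand) had 6.30 and 6.61 FPKM in differentiation, against 10.7 and 10.3 FPKM in control. Both differentiation libraries lay below both control libraries, and the log2 difference was -0.63 (SE 0.05). Cers5 averaged 2.84 times the FPKM of Cers6 in differentiation and 1.76 times in control.

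Cers2 is the broadly expressed synthase of very-long-chain ceramides. It (chr3:95314791-95323599, plus strand) had 15.0 and 14.2 FPKM in differentiation, against 9.70 and 10.3 FPKM in control. The groups did not overlap, and the log2 difference was 0.50 (SE 0.05). Of its 3676 exonic bases, 75 are shared with Setdb1 and 144 with the antisense gene 6330562C20Rik, both on the other strand, and the labels do not say if counting was strand-specific.

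Cers1, which favours stearoyl-CoA and is known from brain and muscle, and Cers4, which takes stearoyl and somewhat longer chains, stayed under 1 FPKM in every library. Cers1 (chr8:70315775-70331592, plus strand) had 0.781 and 0.774 FPKM in differentiation, against 0.891 and 0.657 FPKM in control. The differentiation values lay between the control values, which rest on 55 and 43 fragments. Of the 3171 exonic bases of Cers1, 1349 are shared on the same strand with Gdf1, a growth factor gene in the same transcription unit, so the value is uncertain. A further 68 are shared with Upf1 on the other strand. Cers4 (chr8:4493026-4531680, plus strand) had 0.551 and 0.709 FPKM in differentiation, against 0.876 and 0.738 FPKM in control. The ranges did not overlap, and the log2 difference was -0.15 (SE 0.11) on the log2(FPKM + 1) scale and -0.38 (SE 0.15) with limma-voom on recovered fragments. On the other strand 886 of its 12264 exonic bases are shared with the pseudogene Vmn2r-ps89 and 214 with Gm36956.

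Within the family, Cers3 supplied 64.0% and 63.6% of the summed ceramide synthase FPKM in the differentiation libraries, against 1.27% and 2.29% in the control libraries. Cers5 supplied 16.3% ± 0.473 in differentiation and 44.7% ± 0.082 in control (SD, n = 2 each), so the leading isoform differed between the groups. Cers6 supplied 5.73% ± 0.228 in differentiation and 25.5% ± 0.891 in control, and Cers2 13.0% ± 0.455 in differentiation and 24.2% ± 0.755 in control (SD, n = 2 each). The sum over the family was 113 and 112 FPKM in differentiation, against 41.0 and 41.5 FPKM in control. Without Cers3 the sum was 40.6 and 40.9 FPKM in differentiation, against 40.5 and 40.6 FPKM in control, a ratio of 1.00. Cers2 was higher and Cers6 lower by similar amounts of FPKM. Shares of recovered fragments, not divided by length, gave another order, since Cers6 has 8875 exonic bases and Cers5 has 3542. By fragments Cers6 supplied 13.6% in differentiation and 44.4% in control, and Cers5 15.4% in differentiation and 31.1% in control, so that Cers6 led in control. Cers3 led in differentiation by both measures.

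**Figure D2:**
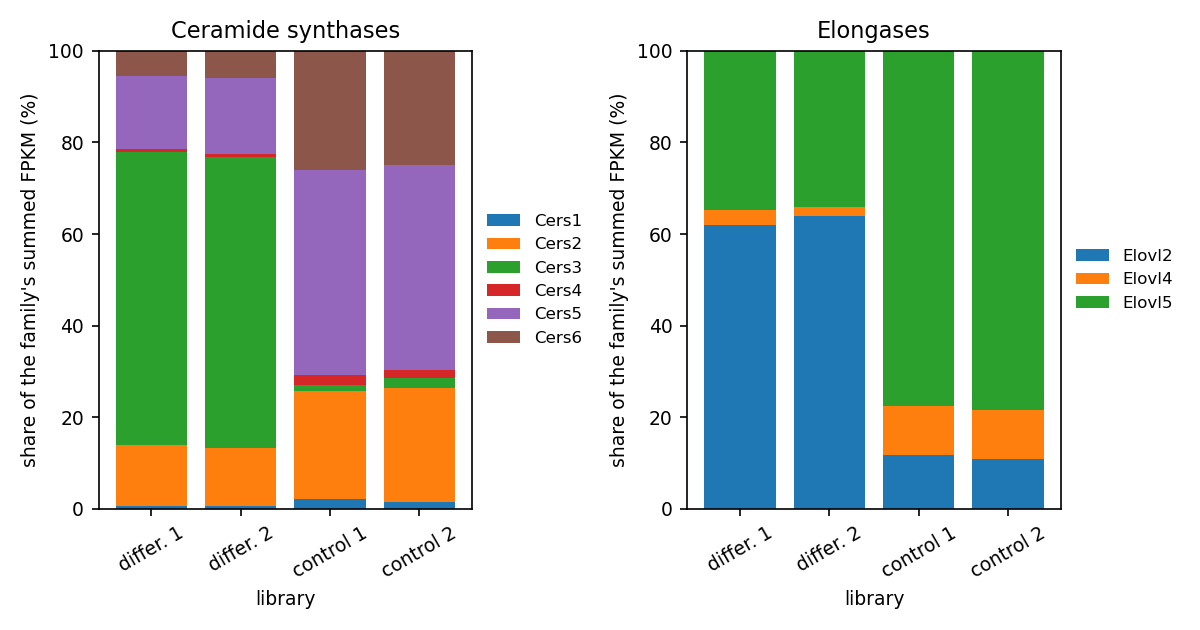
Share (%) of each ceramide synthase in the summed FPKM of the 6 (left panel) and of each elongase in the summed FPKM of the 3 (right panel), for 2 differentiation and 2 control libraries. Cers3 fills 64.0% and 63.6% of the differentiation bars against 1.27% and 2.29% of the control bars, and Elovl2 fills 62.0% and 64.0% against 11.7% and 11.0%.

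Among the elongases, Elovl5 acts on the shorter polyunsaturated fatty acids, Elovl2 on the next longer ones, and Elovl4 makes the ultra-long chains of retina, skin and testis. Elovl2 (chr13:41182381-41220405, minus strand) had 27.9 and 28.7 FPKM in differentiation, against 4.06 and 3.72 FPKM in control. All pairs of libraries showed the increase, with ratios from 6.89 to 7.71 and a log2 difference of 2.58 (SE 0.05). Elovl5 (chr9:77917364-77984519, plus strand) had 15.6 and 15.3 FPKM in differentiation, against 26.9 and 26.6 FPKM in control. The groups stood clearly apart, with a log2 difference of -0.75 (SE 0.03). Elovl4 (chr9:83778692-83806277, minus strand) had 1.51 and 0.860 FPKM in differentiation, against 3.79 and 3.58 FPKM in control. Both differentiation values were lower, but they differed from each other more than the control values did, on 81 and 53 fragments. Its log2 difference was -1.12 (SE 0.17) on the log2(FPKM + 1) scale and -1.74 (SE 0.20) with limma-voom.

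The summed FPKM of the 3 elongases was 45.1 and 44.9 in differentiation, against 34.7 and 33.9 in control. Elovl2 made up 63.0% ± 1.41 of it in differentiation and 11.3% ± 0.479 in control, and Elovl5 34.4% ± 0.397 in differentiation and 77.9% ± 0.702 in control (SD, n = 2 each). Among the ceramide synthases and among these 3 elongases, then, a gene with a small share in control led in differentiation. Other elongase genes are not in these shares.

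In differentiation the order of mean levels was Cers3, Elovl2, Cers5, Elovl5, Cers2, Cers6, Elovl4, Cers1 and Cers4, and no neighbours had overlapping ranges. Each range is of 2 libraries only. The place of Cers1 is uncertain, since it shares exonic bases with Gdf1 and rests on 44 and 50 fragments there. In control the order was Elovl5, Cers5, Cers6, Cers2, Elovl2, Elovl4, Cers4, Cers1 and Cers3. There Elovl2 overlapped with Elovl4, and Cers4, Cers1 and Cers3 could not be ordered beyond their spread.

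By Euclidean distance over log2(FPKM + 1) in the 4 libraries, the 5 protein-coding features closest to Cers3 were Meig1 (distance 0.647), Crisp2 (0.663), Pdcl2 (0.671), Spata4 (0.739) and Piwil1 (0.740). Meig1 is required for spermiogenesis in mice, and Piwil1 is a PIWI protein of spermatocytes and spermatids. Meig1 had 51.7 and 54.3 FPKM in differentiation, against 0.699 and 0.791 FPKM in control. With 4 libraries in 2 groups, such closeness says little more than a low control level and a high differentiation level.

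The genes upstream of the ceramide synthases make the sphingoid base. Of 9 tested genes of ceramide precursor synthesis, 0 rose and 2 fell, 22.2% against the 56.6% of all features, and 7 did not pass (limma adjusted p). The genes of this and the following pathway lists are all protein-coding, and of protein-coding features 66.5% passed. The median log2 difference of the list was -0.18, against 0.01 over all features. Ormdl3, an inhibitor of serine palmitoyltransferase, had 16.6 and 15.2 FPKM in differentiation, against 34.3 and 31.9 FPKM in control (limma adjusted p = 6.40e-04). Kdsr, the ketodihydrosphingosine reductase, had 3.14 and 3.14 FPKM in differentiation, against 5.01 and 4.89 FPKM in control (limma adjusted p = 4.33e-03). Sptlc2, a subunit of serine palmitoyltransferase and named after its value was seen, had 11.8 and 11.9 FPKM in differentiation, against 12.0 and 11.9 FPKM in control, and did not pass. The count depended on the setting: without control replicate 1, Sptlc1, another subunit of serine palmitoyltransferase and named after its value was seen, passed as higher, as it did with limma-voom (limma adjusted p = 0.0370 and 0.0365). The number lower was 6 after quantile normalization, 5 after median centring and 5 with limma-voom.

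Of 13 tested genes of a list for ceramide use, transport and the glycolipids made from it, 7 rose and 4 fell, 84.6% against the 56.6% of all features. Their median log2 difference was 0.24. B4galnt1, which makes complex gangliosides, had 12.5 and 12.5 FPKM in differentiation, against 3.53 and 3.60 FPKM in control (log2 difference 1.56, limma adjusted p = 1.73e-04). Cerk, the ceramide kinase, and B4galt6, a lactosylceramide synthase, had log2 differences of 1.22 and 1.05 (limma adjusted p = 4.08e-04 and 6.51e-04). Sgms2, the sphingomyelin synthase of the plasma membrane, averaged 1.55 ± 0.036 FPKM in differentiation and 4.04 ± 0.023 FPKM in control (SD, n = 2 each), while its paralog Sgms1, named after its value was seen, averaged 7.40 ± 0.0091 FPKM in differentiation and 4.85 ± 0.026 FPKM in control. Gal3st1, which sulfates the galactolipids of male germ cells, rose by 0.93 (limma adjusted p = 9.05e-03). Without differentiation replicate 1 or 2 the log2 difference was of similar size, 1.01 (SE 0.21) and 0.85 (SE 0.21), but did not pass (limma adjusted p = 0.0532 and 0.0710).

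Of 17 tested genes of sphingolipid breakdown, 6 rose and 4 fell. That is 58.8%, against the 56.6% of all features and the 66.5% of protein-coding ones, and their median log2 difference was 0.09. Smpd5, a sphingomyelinase that yields ceramide, had 36.4 and 34.1 FPKM in differentiation, against 0.897 and 1.15 FPKM in control. The ratio of group means was 34.5, with no overlap between the groups (limma adjusted p = 9.76e-05). Galc and Gba2, which remove galactose and glucose from ceramide, had log2 differences of 1.06 and 0.88 (limma adjusted p = 1.28e-03 and 4.21e-04). Sphk1, a sphingosine kinase, fell by 1.06 and the neutral sphingomyelinase gene Smpd2 fell by 0.68 (limma adjusted p = 9.44e-04 and 4.11e-03).

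**Figure D3:**
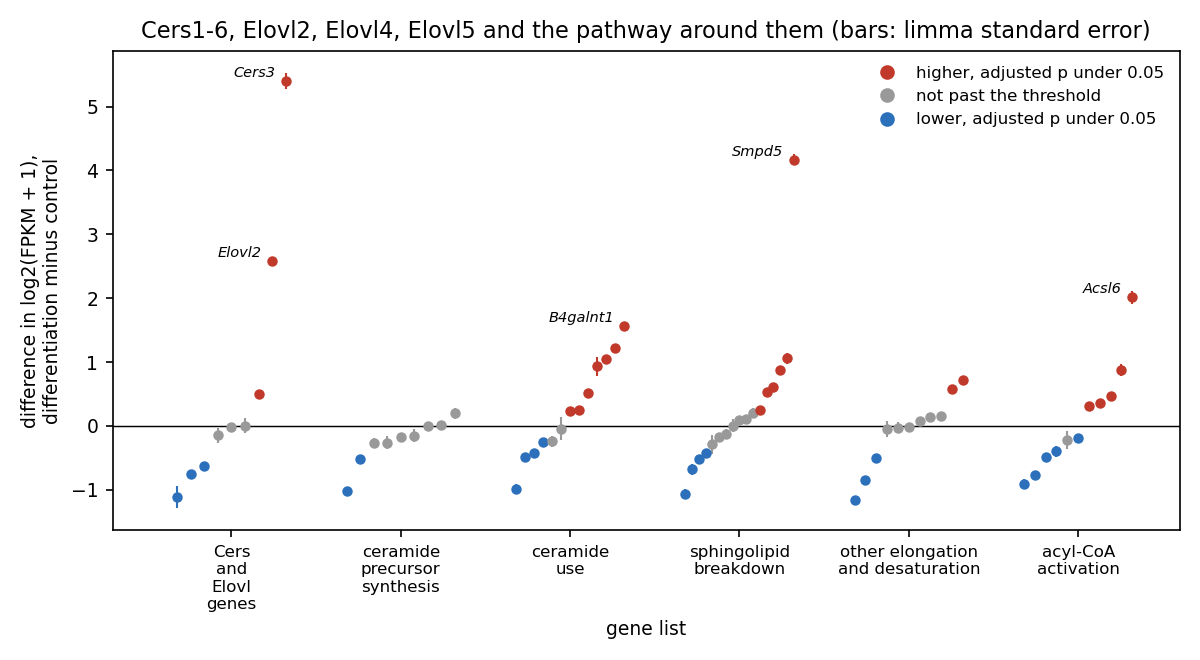
Difference in log2(FPKM + 1), differentiation minus control, for the tested genes of each list. Points are genes, bars are limma standard errors, and colours give the limma call. Cers3 (5.40), Smpd5 (4.17), Elovl2 (2.58), Acsl6 (2.02) and B4galnt1 (1.56) lie above 1.5.

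The elongases work in a cycle with a reductase, a dehydratase and a second reductase, and of 11 tested genes of this cycle and of fatty acid desaturation 2 rose and 3 fell, 45.5% against the 56.6% of all features. Their median log2 difference was -0.01. Elovl6, which elongates saturated chains, had 2.66 and 2.89 FPKM in differentiation, against 7.30 and 7.61 FPKM in control (log2 difference -1.16, limma adjusted p = 6.15e-04). Both reductases fell, Tecr by 0.85 and Hsd17b12 by 0.50 (limma adjusted p = 5.08e-04 and 5.90e-04). The dehydratase genes Hacd3 and Hacd2 rose by 0.72 and 0.58 (limma adjusted p = 2.31e-04 and 2.68e-03). The desaturases Fads1 and Fads2, which act in turn with Elovl5 and Elovl2 and are named here after their values were seen, averaged 19.8 ± 0.440 and 34.9 ± 1.73 FPKM in differentiation, and 19.9 ± 0.919 and 31.3 ± 0.955 FPKM in control (SD, n = 2 each), and did not pass. With limma-voom, Fads2 passed as higher.

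Of 11 tested genes that activate or carry fatty acids, 5 rose and 5 fell, 90.9% against the 56.6% of all features (29.6% higher and 27% lower). Their median log2 difference was -0.19. Acsl6, an acyl-CoA synthetase known for polyunsaturated fatty acids, had 3.25 and 3.64 FPKM in differentiation, against 0.078 and 0.117 FPKM in control (ratio of means 35.3). The control values rest on 15 and 24 fragments. Acsl6 averaged under 0.5 FPKM in control and was tested only through its differentiation level. It is counted among the 5 that rose, but nothing is read from its call. Slc27a6, a fatty acid transport protein, rose by 0.88, while its paralogs Slc27a3 and Slc27a4 fell by 0.91 and 0.78 (limma adjusted p = 2.88e-03, 1.90e-03 and 7.58e-04). Acsl3, an acyl-CoA synthetase of the endoplasmic reticulum and lipid droplets, fell by 0.49 (limma adjusted p = 3.97e-03). Only 3 genes were higher without control replicate 1, control replicate 2 or differentiation replicate 1, and only 3 were lower without control replicate 1, control replicate 2 or differentiation replicate 2.

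Other RNAs moved in the same comparison, in which 29.6% of all features tested were higher and 27% lower. Of the meiotic prophase markers, Piwil1 among them, 10 of 10 rose, with a summed level of 1112 to 1131 FPKM in differentiation and 173 to 176 FPKM in control. Hspa2, a chaperone of pachytene spermatocytes, rose by 3.93 and Sycp3, of the synaptonemal complex, by 1.60 on the log2 scale. Of the spermatid markers 5 of 7 tested rose, and the list summed to 23.3 to 24.5 FPKM in differentiation and 4.77 to 6.39 FPKM in control. Among the 5, Acr, Pgk2, Tnp2 and Prm1 (named after their values were seen) averaged under 0.5 FPKM in control. They were tested only through their differentiation level, so nothing is read from this count. Acr and Pgk2 averaged 9.42 and 6.59 FPKM in differentiation and held most of the sum. In differentiation Tnp2 rested on 15 and 17 fragments and Prm1 on 10 and 11. The acrosomal gene Acrv1 was at 0.843 ± 0.183 FPKM in differentiation and 0.955 ± 0.224 FPKM in control (SD, n = 2 each). The markers called higher moved in the direction of Cers3, Elovl2, Cers2, Smpd5 and Acsl6, and their part in those results was not tested.

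In the direction of Cers6, Elovl5, Elovl4, Elovl6 and Ormdl3 moved 8 of 10 markers of undifferentiated spermatogonia. Among all features tested, 27% were lower and 29.6% higher, which is the background for each count here. The list summed to 35.7 to 35.9 FPKM in differentiation and 141 to 145 in control. The 8 markers include Zbtb16, a transcription factor of spermatogonial stem cells, with 3.78 and 3.92 FPKM in differentiation, against 25.4 and 25.4 FPKM in control. Also lower were 6 of 7 markers of differentiating spermatogonia (245 summed FPKM in both differentiation libraries and 472 to 487 in control), among them Kit with 7.73 and 7.65 FPKM in differentiation and 30.4 and 31.6 FPKM in control, and 9 of 10 fibroblast and peritubular markers (79.8 to 84.3 in differentiation and 238 to 242 in control), among them the collagen gene Col1a1. Of the leukocyte markers 7 of 8 tested fell (17.7 to 17.9 in differentiation and 67.1 to 70.8 in control), Lyz2 among them. The leukocyte markers Adgre1 and C1qb and the fibroblast marker Lum (named after their values were seen) averaged under 0.5 FPKM in differentiation. They were tested only through their control level, so nothing is read from their part in these counts. Of the 4 tested Leydig cell markers 2 fell, Cyp11a1 among them, and 1 rose (20.9 to 21.3 in differentiation and 37.1 to 38.2 in control). Sertoli cell markers, with 3 of 8 tested higher and 3 lower, summed to 155 to 167 FPKM in differentiation and 152 to 156 FPKM in control, and Sox9 did not pass. The listed markers Tnp1 (spermatid), Rhox5 (Sertoli) and Insl3 (Leydig), named here outside the naming rule, had no feature in the data. They are in no count or sum. The part of these cells in the results was not tested.

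**Figure D4:**
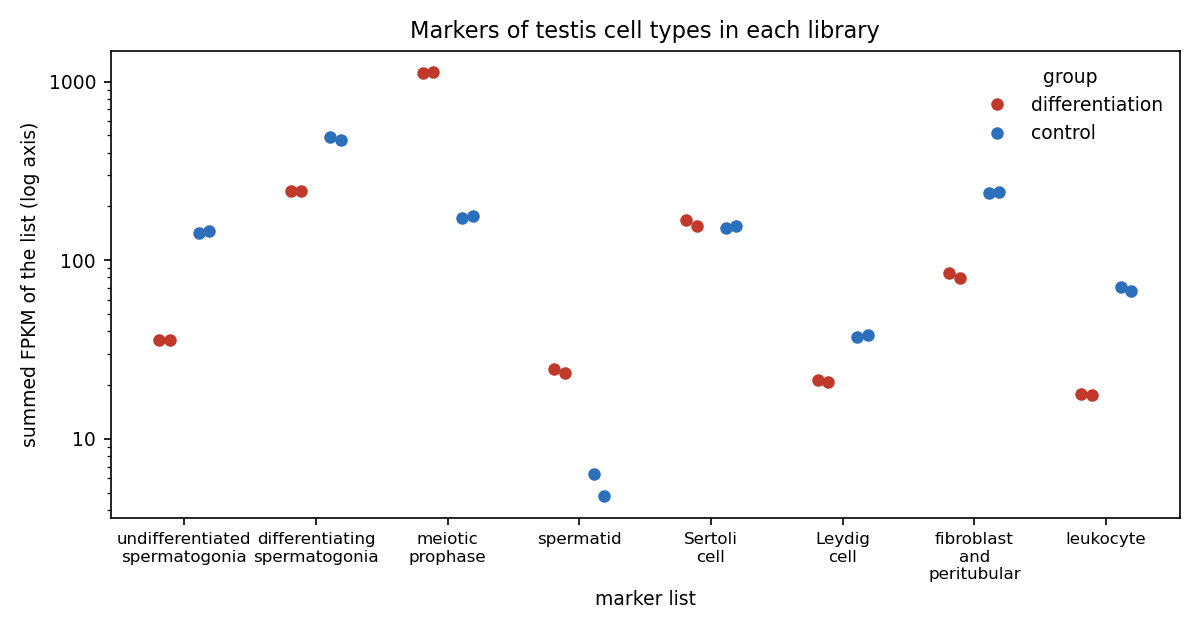
Summed FPKM (log axis) of 8 marker lists in the 2 differentiation libraries (red) and the 2 control libraries (blue), each point a library. The meiotic prophase list stands at 1112 and 1131 FPKM in differentiation against 173 and 176 in control, and the undifferentiated spermatogonia list at 35.9 and 35.7 against 141 and 145.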

How the data were processed

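Per the labels' protocols, total RNA was depleted of ribosomal RNA before library preparation. HISAT2 and GRCm38 are named in the submitters' processing notes. No annotation, counting tool or strand setting is given in these sources. The authors deposited FPKM for 31600 features in 4 libraries, with their log2 fold change and p-value per feature. Their test is not named in these sources.

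FPKM was tested with limma 3.58.1 (R 4.3.3). Values were log2(FPKM + 1), group was the only term, and the prior variance followed the mean level. Features had a mean of at least 0.5 FPKM (23138), and p-values were two-sided and Benjamini-Hochberg adjusted over all of them. Where a symbol had several features, the one with the highest mean was used. The fit was tested on simulated data.

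Fragments were recovered by multiplying FPKM with the exonic length in GENCODE M21 (31536 identifiers matched) and fitting a scale per library (17774600 and 20360462 in differentiation, 19459420 and 20646650 in control). Of the features under 300 fragments, 95.5% to 96.2% came out whole within 0.05. The variance between replicate libraries was 1.64 (differentiation) and 1.71 (control) times that of Poisson counting. Intervals cover counting error only.

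The 9 genes, the 5 pathway lists and the marker lists were chosen with earlier results of these data known. The text names the 9 genes, up to 5 called genes per pathway list with the largest change, the 5 features nearest to Cers3, and 9 fixed markers. Genes outside this rule are marked as such. Matching used Python 3.11.15.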

Additional observations from a re-analysis of the deposited data

How the results depend on the processing

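The alternatives for the fit, 12 in all, were another pseudocount, 2 filters, 2 scalings, no intensity trend, a replicate block, each library left out in turn, and limma-voom. For the 9 genes they give values only, since the genes were chosen on this contrast. The log2 difference of Cers3 ranged from 5.22 to 6.62 and that of Elovl4 from -1.74 to -0.90. That of Cers5 was -0.16 after quantile normalization and that of Cers4 -0.38 with limma-voom. Leaving out each library gave 0 to 1 higher genes of ceramide precursor synthesis, and 3 to 4 higher and 3 to 4 lower genes of acyl-CoA activation. With limma-voom 1 gene of precursor synthesis was higher, and 5 were lower, as with median centring, against 6 with quantile normalization. The share of Cers3 in differentiation was 55.7% by recovered fragments, which are not divided by length, and 64.2% without Cers1. The replicate block used the shared numbers 1 and 2, which the labels do not tie to a batch. Differences between replicates 1 and 2 had a correlation of -0.000408 across features between the groups, and with the block 6510 features were higher and 5788 lower, against 6848 and 6246 without it. The block changed no call of a pathway gene that the naming rule picked, and these are the genes with the largest changes. In the whole lists it gave 3 lower genes of ceramide use, against 4 without it. Of sphingolipid breakdown it gave 5 higher genes, against 6 without it. The other counts of the pathway lists stayed the same. The control libraries were about as deep as the differentiation libraries, and the few control fragments of Cers3 and Acsl6 limit the precision of their ratios.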
